A study of Rattus norvegicus with 16 samples.

Results

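CD8+ RT1B+ leukocytes of nephritic rat glomeruli were compared with CD8+ RT1B+ leukocytes of the blood. The comparison takes every array whose title names one of these populations in the Wistar Kyoto (WKY) strain, which gave 4 of the 16 arrays of the series, 2 from glomeruli and 2 from blood. All WKY animals were female, 15 weeks old and immunised with an autoantigen that induces autoimmune glomerulonephritis, and tissue was taken on days 30 to 35. RT1B is a class II molecule of the rat major histocompatibility complex (MHC). Blood mononuclear cells came from a density gradient, glomerular leukocytes from digested glomeruli, and both went through a magnetic bead sort in 3 steps for CD8 and RT1B. The other 12 arrays hold CD8+ RT1Blow cells of WKY glomeruli and blood, blood pan T cells and macrophage-labelled glomerular cells of WKY rats, and both CD8+ populations of Lewis blood, 2 arrays a group. The macrophage-labelled arrays are called so throughout because their titles and population field say macrophage, while the array name inside each title carries a pan T tag. Whether the 2 arrays of a population stand for separate animals, the same animals or pools is not in the labels. The p-values therefore rest on spread that may be technical. No unimmunised group was analysed here, so every value describes cells of immunised animals.

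Killer lymphocytes that meet their target or an activating signal are known to switch on receptors of the tumour necrosis factor (TNF) receptor family, chemokines and interleukins, many of them through the transcription factors NF-kB, NFAT and AP-1. In crescentic nephritis of the WKY rat, CD8+ leukocytes and macrophages gather inside the glomerular tuft, which is built of podocytes, endothelial cells and mesangial cells. Leukocytes that leave the blood for a tissue commonly lower the receptors that keep them in circulation.

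A level is the log2 signal of a gene minus the 75th percentile of its array, which compares 1 gene across arrays and not 1 gene with another. On the 4 arrays compared, the share of the 58717 gene spots well above background was 57.3% to 68.4%. With 2 arrays a group, precision is limited by their number. Arrays of the same group correlated at 0.9867 in glomeruli and 0.9796 in blood, across the genes tested. Both glomerular arrays were on slide 2 and both blood arrays on slide 1, each scanned once, so slide and tissue cannot be told apart in this comparison. The RT1Blow arrays are split in the same way, while the pan T and macrophage-labelled arrays are all on slide 2, so blood RT1B+ cells and pan T cells differ in slide as well. In a bulk sample, fewer cells of a type and less RNA per cell cannot be told apart either.

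The label was set beside the gated and lineage genes. Cd8a, the CD8 alpha chain, was at 3.0 and 3.14 on the glomerular arrays and at 4.82 and 4.11 on the blood arrays. It fell by 1.40 (standard error 0.32, adjusted p = 0.0137), a call that held only without the second blood array when 1 of the 4 arrays was left out. RT1-Bb, the beta chain of RT1B, read 2.45 and 2.54 against 2.14 and 2.95. Both groups were sorted as RT1B+, so this comparison does not check the gate. RT1-Ba, the alpha chain, was not well above background on any of the 4 arrays or on either macrophage-labelled array. Its probe thus gave no check of the gate. The natural killer (NK) cell receptor Klrb1a read 2.98 and 2.56 against 3.09 and 2.88, far above pan T cells at -0.47 and -0.61. Cd3e, a chain of the T cell receptor complex, read -1.37 and -2.29 against 0.15 and -1.55, below pan T cells at 2.18 and 2.64. The arrays therefore carried CD8 alpha and NK receptor RNA in both tissues, with less Cd3e than pan T cells.

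Of 18444 genes tested, 1487 were higher and 950 lower in glomerular than in blood RT1B+ cells, which makes 13.2% called in either direction, 8.06% higher and 5.15% lower. Calls needed an adjusted p under 0.05 (limma, Benjamini-Hochberg), a difference of 2-fold or more, and a signal well above background on both arrays of a group compared. Among the 2437 called genes, 1426 had a symbol. The median difference over all genes tested was 0.0979 on the log2 scale. List counts and medians given below are read against these percentages and this median. A share near them is not a result about the list. Without the second glomerular array the fit called 1026 genes, and with the variance taken from the 4 arrays alone it called 687. The authors' processed log2 values gave 1802 higher and 484 lower with a median of 0.290. Without the second blood array the counts were 875 and 861, and with the normexp background correction 1619 genes were called.

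**Figure D1:**
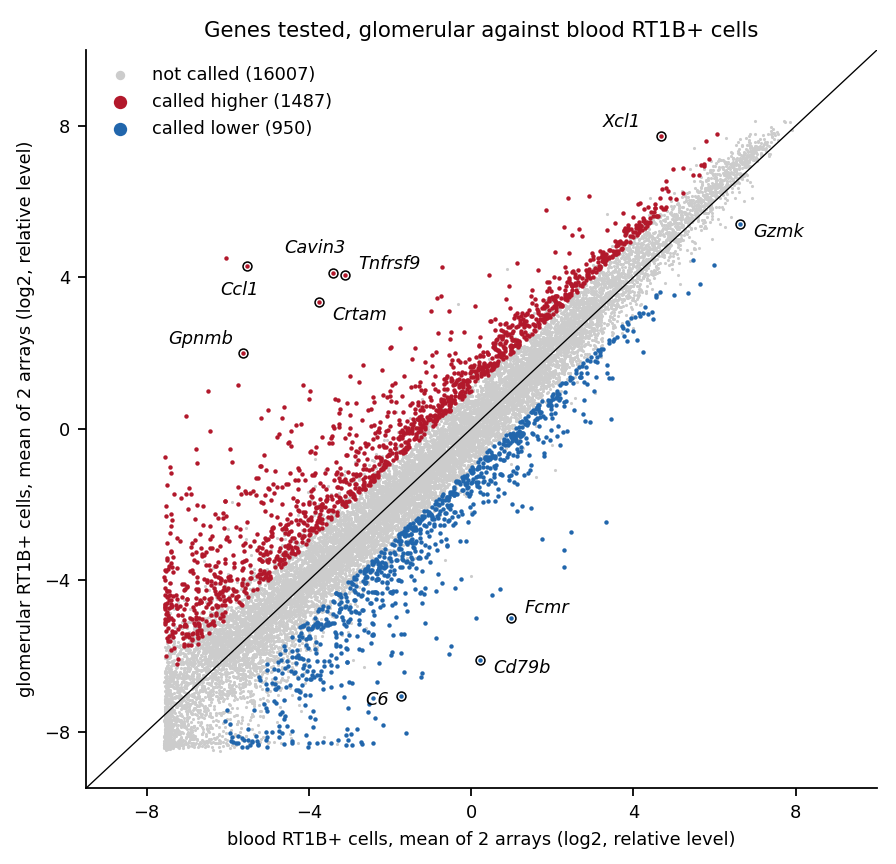
Mean log2 level of each of the 18444 tested genes in blood RT1B+ cells (x axis) and glomerular RT1B+ cells (y axis), 2 arrays each, with 1487 genes called higher in red, 950 called lower in blue and the diagonal marking equal levels. Ccl1, Cavin3, Tnfrsf9 and Crtam stand alone in the upper left and the B cell genes Cd79b and Fcmr in the lower right.

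The chemokine Ccl1 rose most of all genes with a symbol, and the activation receptors Tnfrsf9 and Crtam were among the 20 largest rises. Ccl1, a ligand of the receptor CCR8 that activated T cells are known to secrete, read 4.59 and 4.02 on the glomerular arrays and -5.60 and -5.46 on the blood arrays. Both glomerular arrays were high and both blood arrays near the floor of detection, where 1 of 2 was well above background. The difference was 9.84 ± 0.48 on the log2 scale (standard error of the fit, here and below) with an adjusted p of 3.01e-06, a 914-fold rise. Tnfrsf9, the costimulatory receptor 4-1BB of activated CD8+ and NK cells, was at 3.86 and 4.25 in glomeruli against -3.04 and -3.17 in blood. It rose by 7.16 ± 0.49 (adjusted p = 2.35e-05), a 143-fold difference measured above background on both sides. Crtam, an adhesion receptor of activated NK and CD8+ T cells, read 2.86 and 3.83 against -3.29 and -4.23, a rise of 7.11 ± 0.51 (adjusted p = 2.67e-05). All 3 markers were called in each of the alternatives tried. On the macrophage-labelled glomerular arrays they were lower than in glomerular RT1B+ cells, at 2.28 and 1.80 for Ccl1, 1.15 and 0.13 for Tnfrsf9, and -1.20 and -1.20 for Crtam.

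**Figure D2:**
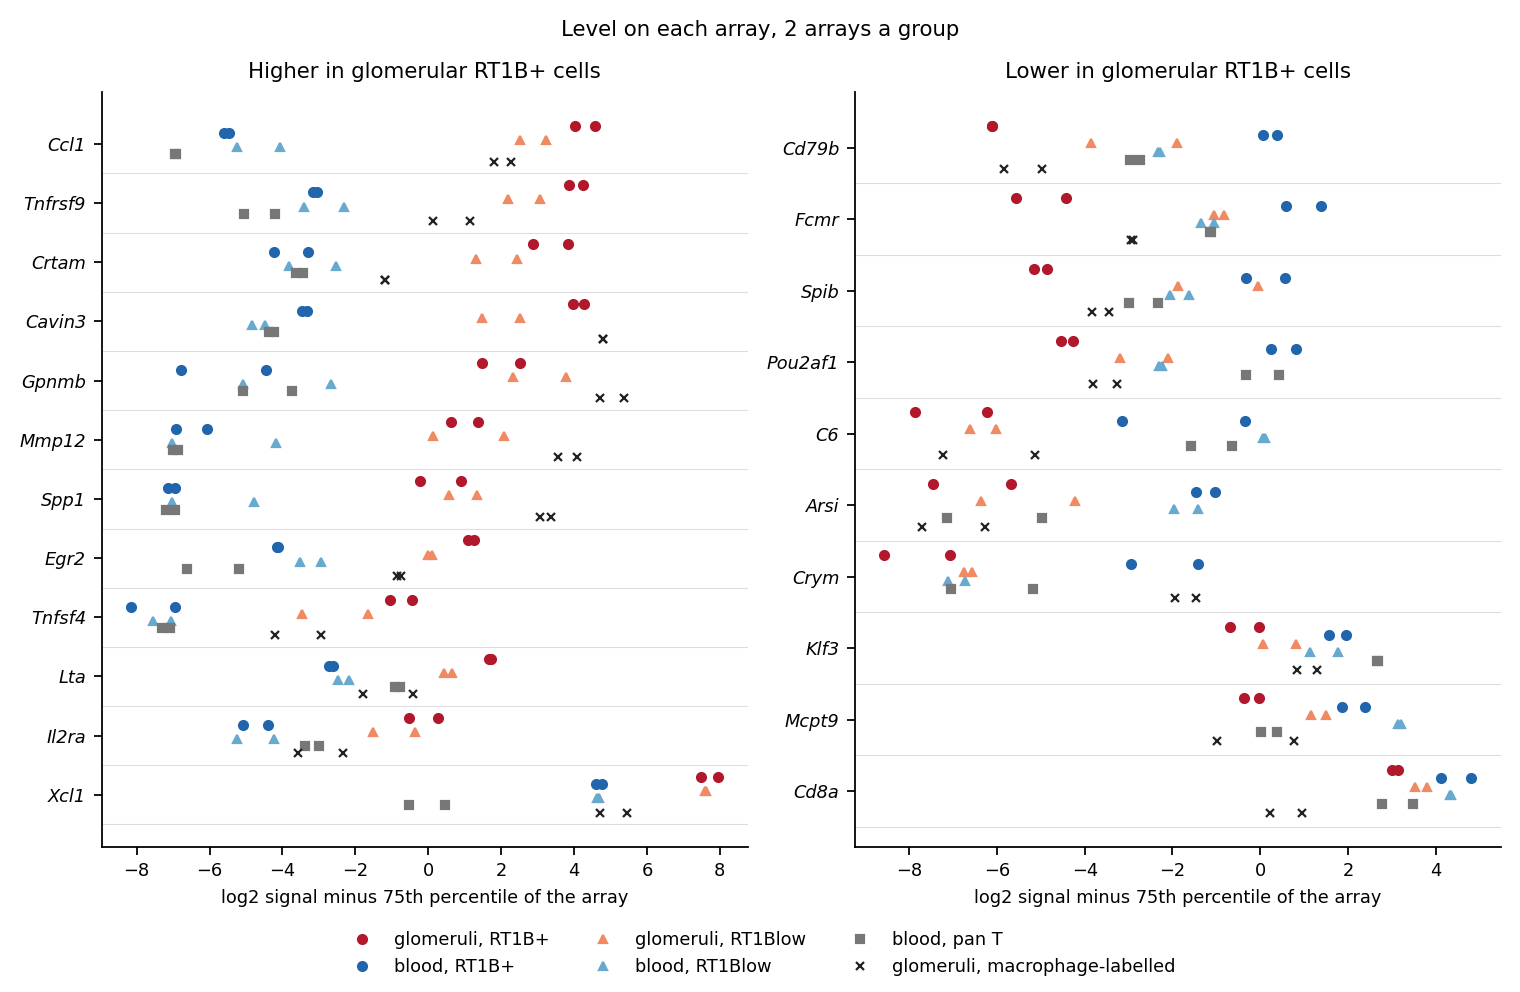
Level on each array (log2, 75th percentile of the array set to 0, x axis) of 12 genes called higher and 10 called lower in glomerular RT1B+ cells, for 6 WKY groups of 2 arrays, 1 symbol per array. Red points (glomerular RT1B+) lie apart from dark blue points (blood RT1B+) for every gene shown. For Ccl1 they lie at 4.59 and 4.02 against -5.60 and -5.46. The genes were chosen among those called, so this separation is no further test. Black crosses (macrophage-labelled) lie to the right of the red points for Cavin3, Gpnmb, Mmp12 and Spp1.

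Other large rises among genes with a symbol fell into those that the macrophage-labelled arrays carried more strongly and those they did not. With genes not well above background in blood ranked by their lower bound, 12 of the 20 largest rises were higher on both macrophage-labelled arrays than on both glomerular RT1B+ arrays and 8 lower. Over all 1487 genes called higher, those figures were 307 and 1022. Among the 12, Gpnmb, a glycoprotein of lesion macrophages, read 1.46 and 2.52 in glomeruli, -6.78 and -4.46 in blood and 5.38 and 4.72 on the macrophage-labelled arrays, with 1 of 2 blood arrays well above background. The macrophage elastase Mmp12 rose at least 76.0-fold and osteopontin, Spp1, at least 48.3-fold, since neither was well above background on a blood array. Cavin3, a subunit of the caveolar coat, read 4.28 and 3.96 against -3.46 and -3.33, and 4.78 and 4.78 on the macrophage-labelled arrays, so its glomerular RT1B+ level came within 1 log2 unit of theirs. Among the 8 were Ccl1, Tnfrsf9, Crtam and Il2ra, and with them Egr2, a transcription factor induced by antigen receptor signals. Egr2 was at 1.08 and 1.25 in glomeruli and -4.16 and -4.12 in blood, a rise of 5.30 ± 0.45 (adjusted p = 7.54e-05). The kinase gene Dclk1 rose by 5.52 ± 0.39, with 1 of 2 blood arrays well above background, and the zinc transporter gene Slc30a3 at least 26.5-fold. The part of macrophage RNA in the first set was not tested.

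Costimulatory and checkpoint receptors were higher in glomerular cells for 10 of 23 tested members and lower for 0, with a median difference of 0.926. Beside Tnfrsf9 and Crtam these were Tnfrsf8, the receptor CD30, at -2.17 and -1.29 against -6.98 and -7.67, a rise of at least 11.5-fold, and another Tnfrsf8 probe differed by 3.81 on the log2 scale. Cd27 rose from 2.51 and 2.33 to 4.32 and 4.99, Pdcd1lg2, the ligand PD-L2, rose by 3.21 ± 0.33, and Slamf6 at least 4.31-fold. The remaining 4 were Slamf1, Havcr2 (the receptor TIM-3), Tnfrsf1b and Tnfrsf18. For 8 of the 10 the macrophage-labelled arrays were below both glomerular RT1B+ arrays, and for 0 of 10 above both. Among all 1487 genes called higher, 1022 were below both and 307 above both. Receptors that did not pass the test included Pdcd1 at 0.17 ± 0.27, Icos at 0.33 ± 0.45 and Cd69 at -0.65 ± 0.32 (log2 differences). Lag3 stood at 1.25 ± 0.44 with an adjusted p of 0.0762. The count was 7 to 9 when 1 array was left out.

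Ligands of the TNF family showed the same direction for 5 of 10 tested members, against 1 lower, with a median of 1.44. Tnfsf4, the OX40 ligand, read -1.04 and -0.45 in glomeruli against -6.95 and -8.16 in blood, at least 22.9-fold higher. Cd70, the partner of the receptor Cd27, read 0.60 and 0.99 against -3.24 and -3.49, a rise of 4.16 ± 0.59 (adjusted p = 0.00121). Tnfsf14, also called LIGHT, rose by 2.99 ± 0.34. The death ligand Faslg did not pass at 3.04 and 3.41 against 3.19 and 3.16, a difference of 0.05 ± 0.26. Tnfsf12, also called TWEAK, fell by 1.66. Tnfsf10 and Tnfsf15, the other two that rose, were not well above background on either blood array and higher on the macrophage-labelled arrays than in glomerular RT1B+ cells. With the normexp background correction 3 of 10 members rose, and Tnfsf12 did not pass without the first glomerular or the first blood array.

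Chemokines were higher for 12 of 27 tested members and lower for 0, with a median of 0.595. Xcl1, lymphotactin, which NK and CD8+ T cells release to call in cross-presenting dendritic cells, read 7.50 and 7.95 in glomeruli and 4.76 and 4.59 in blood. Its rise of 3.05 ± 0.34 (adjusted p = 0.000319) held for both arrays on each side, and the macrophage-labelled arrays were lower at 5.44 and 4.70. Ccl1 and Xcl1 were the only 2 of the 12 with macrophage-labelled arrays below both glomerular RT1B+ arrays, while the other 10 were higher there. Those 10 were the CCR4 ligands Ccl17 and Ccl22, the monocyte attractants Ccl2, Ccl7 and Ccl12, the interferon-induced CXCR3 ligands Cxcl9, Cxcl10 and Cxcl11, and Ccl9 and Cx3cl1. Ccl22, for example, read 0.32 and 1.17 in glomeruli, -3.33 and -3.22 in blood and 3.43 and 2.56 on the macrophage-labelled arrays. The chemokines typical of cytotoxic lymphocytes, Ccl3, Ccl4 and Ccl5, differed by 0.71 ± 0.44, -0.85 ± 0.40 and 0.25 ± 0.44 and did not pass. Between 10 and 12 members were called when 1 array was left out.

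Among effector and helper cytokines, 9 of 30 tested members were higher and 2 lower, with a median of 0.973. Lta, lymphotoxin alpha, read 1.72 and 1.66 in glomeruli and -2.62 and -2.72 in blood, with pan T cells at -0.77 and -0.92 and macrophage-labelled arrays at -0.43 and -1.79. It rose by 4.36 ± 0.35 (adjusted p = 6.41e-05), and both glomerular arrays lay above every array of those other groups. Tnf itself read 5.79 and 6.38 against 2.83 and 1.93, a rise of 3.70 ± 0.50 (adjusted p = 0.000896), with 5.91 and 4.27 on the macrophage-labelled arrays. Il10, an anti-inflammatory cytokine, rose by 2.18 ± 0.28 and was below the glomerular RT1B+ level on both macrophage-labelled arrays. The interleukin 1 genes Il1a, Il1b and the receptor antagonist Il1rn were higher in glomerular than in blood cells and higher again on the macrophage-labelled arrays. Il1a read -2.03 and 0.21 in glomeruli, at least 20.4-fold above blood, and 3.41 and 2.23 on the macrophage-labelled arrays, and another Il1a probe differed by 2.73 on the log2 scale. Ifng, the main interferon of NK and CD8+ T cells, did not pass at 4.50 and 4.16 against 3.64 and 3.13, a difference of 0.94 ± 0.37 (adjusted p = 0.109). Il16 fell by 2.51 and Il15 by 1.44, and Il15 lost its call in 8 of 15 alternatives. Without the second glomerular array 5 members were called higher.

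Cytokine receptors were called higher for 3 of 23 members and lower for 0, with a median of 0.223. That median was 0.509 without the first and -0.0741 without the second glomerular array. Il2ra, the alpha chain that gives the interleukin 2 receptor its high affinity, read -0.53 and 0.26 in glomeruli against -5.09 and -4.38 in blood, with 1 of 2 blood arrays well above background. It rose by 4.60 ± 0.52 (adjusted p = 0.000319). Il21r, the interleukin 21 receptor, read 3.76 and 4.38 against 0.63 and 0.25 and rose by 3.63 ± 0.43. The decoy receptor Il1r2 was the other member called, and was highest on the macrophage-labelled arrays at -0.40 and -1.51. Its call was lost in 4 of 14 alternatives. Cish, a feedback inhibitor that cytokine signals through STAT5 are known to induce, rose by 2.35 ± 0.38 from -1.70 and -2.09 to 0.19 and 0.72. The feedback list had 5 of 20 members higher, with Lgals3, Pde4b, Rgs16 and Cblb, but 2 of 20 without the second glomerular array and 3 without either blood array.

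Members of the NF-kB pathway and its targets were higher for 7 of 18 and lower for 0, with a median of 0.792. Nfkb2, the p100 precursor of the non-canonical arm, read 3.06 and 3.80 in glomeruli and 1.52 and 0.20 in blood and rose by 2.57 ± 0.44 (adjusted p = 0.00315). Traf1, an adaptor of TNF receptors such as Tnfrsf9, rose by 1.78 ± 0.35, the survival gene Bcl2a1 by 1.77 ± 0.30, and the adhesion molecule Icam1 by 1.59 ± 0.44. Macrophage-labelled arrays were below both glomerular RT1B+ arrays for 6 of these 7 genes, the exception being Tnfaip2. The same held for 1022 of all 1487 genes called higher. The subunit Rela and the inhibitor Nfkbia did not pass, at -0.17 ± 0.32 and 0.20 ± 0.37. The count rested on single arrays: 2 members were called without the second glomerular array and 2 without the second blood array, and 0 when the fit held only the 4 arrays compared. The median was 0.378 without the second and 1.21 without the first blood array.

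Promoter sequences are shown for 5 of the genes that rose, to set the genes with a match to the NF-kB or AP-1 motif beside Ccl1, which has neither. The Tnfrsf9 promoter, not shown, also held neither. The 5 were chosen after the motif search. Each is the 250 bases before the start of the gene, 5′ to 3′ on the gene's strand, from RefSeq on the GRCr8 assembly, with motif matches in capitals. Tnfrsf8 lies at chr5:162451621-162451870 on the minus strand, Nfkb2 at chr1:255108124-255108373 on the plus strand, Lta at chr20:3623277-3623526 on the plus strand, Il1a at chr3:136990018-136990267 on the minus strand and Ccl1 at chr10:67628741-67628990 on the minus strand.
Tnfrsf8: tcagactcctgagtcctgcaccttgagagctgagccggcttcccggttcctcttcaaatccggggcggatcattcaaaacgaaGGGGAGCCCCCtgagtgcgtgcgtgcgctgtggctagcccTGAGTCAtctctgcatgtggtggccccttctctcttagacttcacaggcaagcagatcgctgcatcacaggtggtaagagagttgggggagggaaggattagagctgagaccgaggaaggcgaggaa
Nfkb2: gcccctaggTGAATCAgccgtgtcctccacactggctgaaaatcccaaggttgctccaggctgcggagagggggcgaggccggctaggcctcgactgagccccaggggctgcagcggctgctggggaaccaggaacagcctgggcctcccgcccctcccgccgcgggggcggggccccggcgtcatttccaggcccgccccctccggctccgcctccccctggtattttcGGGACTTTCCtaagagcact
Lta: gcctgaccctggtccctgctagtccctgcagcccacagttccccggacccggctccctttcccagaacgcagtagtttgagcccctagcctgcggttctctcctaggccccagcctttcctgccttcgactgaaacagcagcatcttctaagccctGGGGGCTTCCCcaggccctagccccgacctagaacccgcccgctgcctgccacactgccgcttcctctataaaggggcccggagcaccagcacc
Il1a: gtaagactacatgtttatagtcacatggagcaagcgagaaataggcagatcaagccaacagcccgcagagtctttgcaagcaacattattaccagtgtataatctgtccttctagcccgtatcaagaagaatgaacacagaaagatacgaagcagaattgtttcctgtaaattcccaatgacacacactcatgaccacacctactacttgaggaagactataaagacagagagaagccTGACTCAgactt
Ccl1: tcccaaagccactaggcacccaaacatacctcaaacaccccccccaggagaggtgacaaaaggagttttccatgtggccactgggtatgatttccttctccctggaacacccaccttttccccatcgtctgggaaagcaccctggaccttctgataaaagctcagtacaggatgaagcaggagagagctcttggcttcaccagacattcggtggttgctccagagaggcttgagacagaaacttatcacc
AP-1 was searched as TGANTCA and NF-kB by its 10-base kappa B consensus, both on either strand. The Tnfrsf8 promoter holds 1 AP-1 match that starts 127 bases upstream and 2 overlapping NF-kB matches that start 167 and 166 bases upstream. In Nfkb2 the NF-kB match starts 20 bases and the AP-1 match 241 bases upstream, and in Il1a the AP-1 match starts 12 bases upstream. Lta holds 2 overlapping NF-kB matches that start 94 and 93 bases upstream. A promoter was at hand for 9193 tested genes. The NF-kB motif was in 12.2% of 630 promoters of genes called higher, in 8.02% of 524 of genes called lower and in 7.92% of the 9193, against 6.93% of all 19005 promoters. For AP-1 the shares were 7.78%, 4.39%, 4.81% and 5.82%. A match describes the letters alone, and its absence says only that these letters are not in this window.

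Of 32 tested immediate early genes 7 were higher and 2 lower, with a median of 0.0502, which quantile normalisation turned to -0.107. Beside Egr2, the orphan nuclear receptor gene Nr4a3 read 2.94 and 3.28 in glomeruli against -0.10 and -1.86 in blood, a rise of 4.09 ± 0.76 (adjusted p = 0.00514). Ier3, Atf3, Dusp4, Gadd45b and Nr4a2 also rose, by 2.90 to 1.56 in that order from largest to smallest. Fos and Jun, the AP-1 subunits induced first after a stimulus, fell by 1.58 and 1.02, from 4.73 and 4.21 to 2.78 and 2.99 for Fos and from 5.80 and 5.14 to 4.47 and 4.43 for Jun. Egr1 and Nr4a1 did not pass, at -0.15 ± 0.58 and 0.49 ± 0.35. Neither Fos nor Jun passed without the first or the second glomerular array or the first blood array, and the list then had 0 lower.

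Of 28 tested lineage transcription factors 4 rose and 1 fell, with a median of 0.0156. Irf4, which antigen receptor strength is known to set, read -0.67 and -0.24 in glomeruli against -4.44 and -4.47 in blood and rose by 4.0 ± 0.51 (adjusted p = 0.000648). Zbtb32, a repressor known to be induced in activated NK and CD8+ cells, rose by 3.07 ± 0.37, Bcl6 by 1.87 ± 0.37 and Id2, required for NK cells, by 1.64 ± 0.28. Tbx21, which drives the effector programme, read 4.52 and 4.81 against 4.83 and 4.36, a difference of 0.06 ± 0.31. Klf2, which maintains genes of circulating lymphocytes, fell by 1.65, from 2.30 and 1.83 to 0.30 and 0.54, and did not pass without the first blood array.

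Circulation and egress genes had 4 members lower and 2 higher of 16 tested, with a median of -0.672. Klf3, a transcription factor related to Klf2, read -0.03 and -0.70 in glomeruli and 1.58 and 1.96 in blood and fell by 2.13. Another Klf3 probe differed by -0.95. The integrin chain Itgam fell by 1.43, from 1.34 and 1.22 to -0.15 and -0.15. In the opposite direction, Ccr7, the lymph node homing receptor, rose by 2.72 ± 0.68, from -3.45 and -4.41 to -1.96 and -0.46, and the egress receptor S1pr1 by 1.02 ± 0.30, a call lost in 10 of 15 alternatives. Without the second blood array or the second glomerular array neither Ccr7 nor S1pr1 passed, and 0 members were called higher. Genes of tissue residency were called for 2 of 15 members, Xcl1 and Rgs16, both higher. Cxcr6 and Itga1 did not pass at 1.02 ± 0.38 and 0.67 ± 0.32.

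Of 19 tested genes of cytotoxic granules 2 were higher, Gzmf and Gzmn, and 1 lower, Gzmk. Over all genes tested 8.06% were higher and 5.15% lower. The median of the list was 0.349. That median was -0.00816 with quantile normalisation, 0.0306 with the authors' processed values, 0.221 without the second glomerular array, and 0.56 and 0.101 without the first and the second blood array. Perforin, Prf1, read 7.0 and 7.31 in glomeruli and 7.05 and 6.51 in blood, a difference of 0.37 ± 0.43, and Gzmb read 6.32 and 6.18 against 5.95 and 5.85, a difference of 0.35 ± 0.41. The arrays of both tissues overlapped for Prf1, and neither gene passed. Gzmf read -0.99 and -1.62 against -5.82 and -4.81 and rose by 4.01 ± 0.53, with 1 of 2 blood arrays well above background. Gzmf, Gzmn and Gzmc are related genes of similar sequence, so the signal of one may come from another, which was not tested. The probes of Gzmc differed, at 1.11 for the brightest and 4.0 and 4.09 for the others. Gzmk fell by 1.22, from 6.92 and 6.34 to 5.43 and 5.40, and passed without the second blood array but in none of the other fits that left out 1 of the 4 arrays.

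NK receptors and adaptors were called for 3 of 28 tested members, a share below the 13.2% of all genes tested. Ncr1, the receptor NKp46, fell by 2.03, from 2.58 and 2.48 to 0.83 and 0.17, and Klrd1, the CD94 chain, by 1.21, from 3.94 and 3.72 to 2.52 and 2.71. Klrb1, a lectin-like receptor, was at least 1.84-fold higher. Klrk1, the receptor NKG2D, did not pass at -0.34 ± 0.31, nor did the adaptor Tyrobp at 0.19 ± 0.33. Klr genes are a family of similar sequences, so their probes may share signal. Ncr1 and Klrd1 did not pass when any 1 of the 4 arrays was left out. Of 20 tested T cell genes 0 were higher and 1 lower, the kinase Txk, with a median of -0.602, and Txk passed without the second blood array alone of these 4 fits. The median was -0.211 without the first blood array, -0.392 without the second glomerular array and -0.292 with the authors' processed values.

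Glycolysis genes were higher for 9 of 24 tested members and lower for 0, with a median of 0.916. The monocarboxylate transporter Slc16a1 rose by 2.67 ± 0.35, from -2.70 and -2.97 to -0.37 and 0.03, and the glucose transporter Slc2a3 by 2.09 ± 0.41. Several enzymes of the pathway rose by smaller amounts, from 1.73 ± 0.22 for Pgam1 through Eno1, Aldoa and Gapdh to 1.26 ± 0.40 for Pkm. Eno2 rose by 1.59 on its brightest probe and differed by 6.56 on another. Ldha did not reach 2-fold at 0.89 ± 0.28 (adjusted p = 0.0475). For 7 of the 9 the macrophage-labelled arrays were below both glomerular RT1B+ arrays, and for 0 above both. Among all 1487 genes called higher these counts were 1022 and 307. Without the second glomerular array 4 members were called, and without the second blood array or with quantile normalisation 6. Cell cycle genes had a median of 0.399, which ran from 0.165 to 0.508 when 1 array was left out. They were called higher for 2 of 34 members, Ccnd2 and Mcm3, a share not above the 8.06% of all genes tested. That count changed when a blood array was left out. The proliferation marker Mki67 read 2.84 and 2.23 against 2.32 and 2.61.

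Regulators of cell death changed in both directions, with 5 of 20 higher and 2 lower. Bcl2l11, which encodes the killer BIM, rose by 2.46 ± 0.33, and the death receptor Fas by 2.38 ± 0.34, from -2.78 and -3.36 to -1.18 and -0.21. The caspase 8 inhibitor Cflar rose by 3.92 ± 0.51 on its brightest probe and differed by 1.91 on another. Bcl2l1, which encodes the survival protein BCL-XL, rose by 1.47 ± 0.33, while its relative Bcl2 fell by 1.32 and Casp8 by 1.76. Neither fall passed without the first blood or the second glomerular array. The stress chaperone Hspb1 rose by 3.36 ± 0.60, and its level on the macrophage-labelled arrays, 4.85 and 4.70, was above both glomerular RT1B+ arrays at -1.21 and 0.00.

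Interferon response genes were called for 6 of 32 tested members, 3 in each direction, with a median of -0.513. Gbp2 and Gbp5, GTPases that interferon gamma is known to induce, rose by 1.20 ± 0.22 and 1.11 ± 0.29, and Oas1b by 1.31 ± 0.29. Irf7, a regulator of the type I response, fell by 1.69, Oasl2 by 1.05 and Mx1 by 1.03. Without the second glomerular array 1 member was higher and 0 lower, without the first blood array 3 and 0, without the second 1 and 2, and with quantile normalisation 0 and 4. In MHC class I processing Tap1 was the 1 member of 12 that rose, by 1.43 ± 0.30, a share near the 8.06% of all genes tested. Of 16 tested genes of MHC class II presentation, the class used for the gate, 1 was higher and 2 lower, with a median of 0.0119. Between the tissues in RT1Blow cells 9 were higher and 0 lower, with a median of 1.59. The mean level of the list was -2.14 and -1.62 in glomerular RT1B+ cells, below glomerular RT1Blow cells at -1.12 and -1.05. In blood it was -1.87 and -1.58 in RT1B+ cells, above RT1Blow cells at -2.4 and -2.53. In RT1B+ cells Cd74 read 3.59 and 4.11 against 3.55 and 4.0, and RT1-Da 1.11 and 1.58 against 1.77 and 2.41. The costimulatory ligand Cd86 rose by 1.91 ± 0.49, and RT1-DOa and RT1-DOb, the chains of a class II chaperone typical of B cells, fell by 2.24 and 1.62. Without the first blood or the second glomerular array 0 of these genes were higher.

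**Figure D3:**
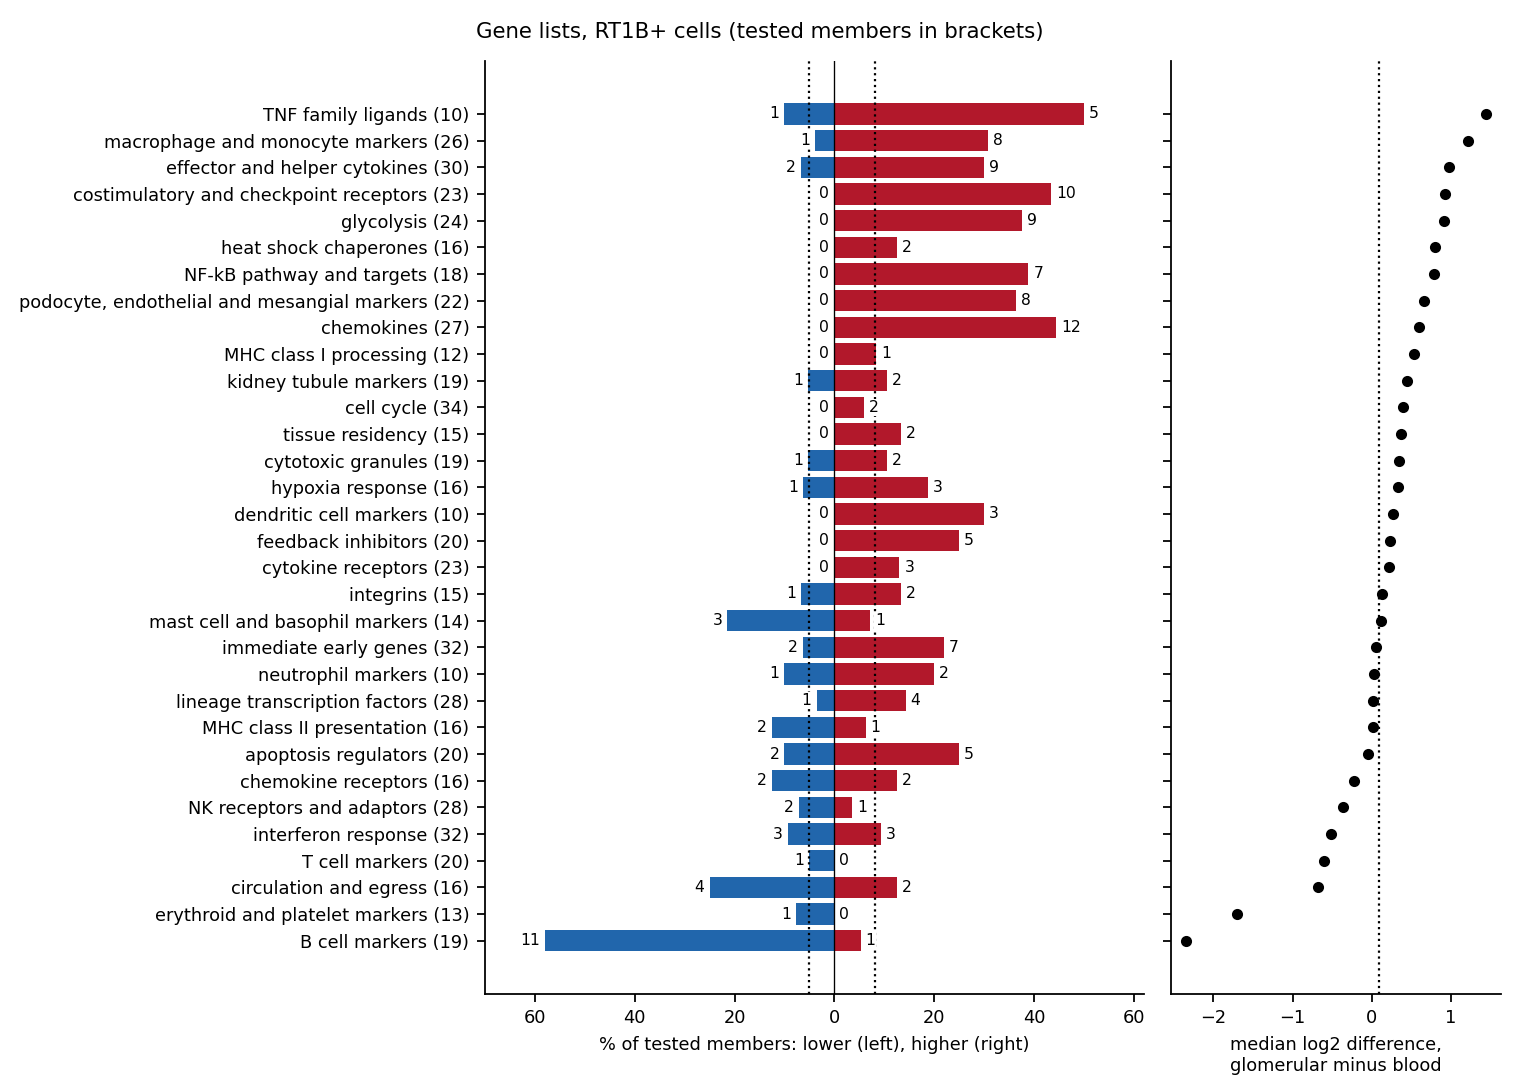
Share of the tested members of each of 32 gene lists called higher (red, right) or lower (blue, left) in glomerular than in blood RT1B+ cells, with the number called beside each bar, and the median log2 difference of each list in the right panel. Dotted lines give the same for all 18444 genes tested: 8.06% higher, 5.15% lower and a median of 0.0979; B cell markers lie lowest at -2.34 and TNF family ligands highest at 1.44.

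B cell genes were the list with the most falls. Of 19 tested members 11 were lower and 1 higher, with a median of -2.34, and between 9 and 11 were lower when 1 array was left out. Cd79b, a chain of the B cell receptor, read -6.11 and -6.11 in glomeruli against 0.06 and 0.38 in blood, with 1 of 2 glomerular arrays well above background. It fell by 6.33 (standard error 0.52, adjusted p = 6.86e-05). Fcmr, the Fc receptor for IgM, read -4.42 and -5.56 against 0.59 and 1.39 and fell by 5.98. The transcription factor Spib read -4.86 and -5.15 against -0.32 and 0.57 and fell by 5.13. Pou2af1, a coactivator of immunoglobulin genes, fell by 4.92 on its brightest probe, and its other two probes gave -2.89 and -2.09. Cd72, which is also found on other leukocytes, rose by 3.46 ± 0.46, and Pax5 did not pass at -0.31 ± 0.30. Over the 19 genes the mean level was -4.89 and -4.85 in glomerular and -2.42 and -1.97 in blood RT1B+ cells, and -4.05 and -4.06 in pan T cells. Blood RT1B+ cells thus read above pan T cells. The glomerular mean includes 4 genes not well above background on either glomerular RT1B+ array. The lowest signal well above background was -6.51 and -5.98 there and -5.44 and -4.94 in pan T cells. Whether glomerular RT1B+ cells lie below pan T cells therefore cannot be told from these means.

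The same tissues were compared in RT1Blow cells, which share no array with the RT1B+ comparison but share its slides. There 1160 genes were higher and 547 lower, 9.26% called in either direction, 6.29% higher and 2.97% lower. The genes higher in both populations numbered 669, which is 45.0% of those of RT1B+ cells and 57.7% of those of RT1Blow cells, and the 336 lower in both were 35.4% and 61.4%. Called in opposite directions were 2 genes. Ccl1 rose in RT1Blow cells too, from -4.07 and -5.25 to 2.51 and 3.23, as did Tnfrsf9, from -2.30 and -3.40 to 2.18 and 3.05, and Crtam, from -2.54 and -3.81 to 1.30 and 2.44. The rises of the 3 markers were larger by 2.31 ± 0.68, 1.69 ± 0.69 and 2.06 ± 0.72 in RT1B+ cells, but none of these differences passed (adjusted p = 0.44, 0.66 and 0.58). Of the 12 chemokines that rose in RT1B+ cells 11 were also called in RT1Blow cells, and of the 10 costimulatory and checkpoint receptors 7. Other lists were less alike. Of the 4 circulation and egress genes that fell, 1 was also called lower in RT1Blow cells, where the list median was 0.162. T cell genes had 5 of 20 members higher in RT1Blow cells, with a median of 0.756. No member of either list was called in the test of the difference between the gates. Leaving out 1 RT1Blow array reduced the RT1Blow calls to 819 or 928 without the first or second glomerular array, and to 757 or 299 without the first or second blood array.

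Testing the difference of the tissue changes between the gates, in which an offset of a whole slide cancels, called 19 genes (0.103%), all more negative in RT1B+ cells. Of these 10 had a symbol, and most were B cell markers, among them Cd79b, Fcmr, Spib, Pou2af1, Mzb1 and Blk. Fcmr differed most, with a change of -5.98 in RT1B+ cells and of 0.26 in RT1Blow cells, a difference of -6.24 ± 0.56 (adjusted p = 0.0013). In blood it read 0.59 and 1.39 in RT1B+ cells and -1.05 and -1.35 in RT1Blow cells, and in glomeruli -4.42 and -5.56 against -1.06 and -0.82. Blk, a kinase of the B cell receptor, fell by 2.64 in RT1B+ cells and rose by 1.83 in RT1Blow cells. Srpk3, Zp1 and Bmf were also called. The count was 7 without the first and 11 without the second glomerular RT1B+ array, 39 without the second glomerular RT1Blow array, and 3 with the 8 WKY CD8+ arrays alone.

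**Figure D4:**
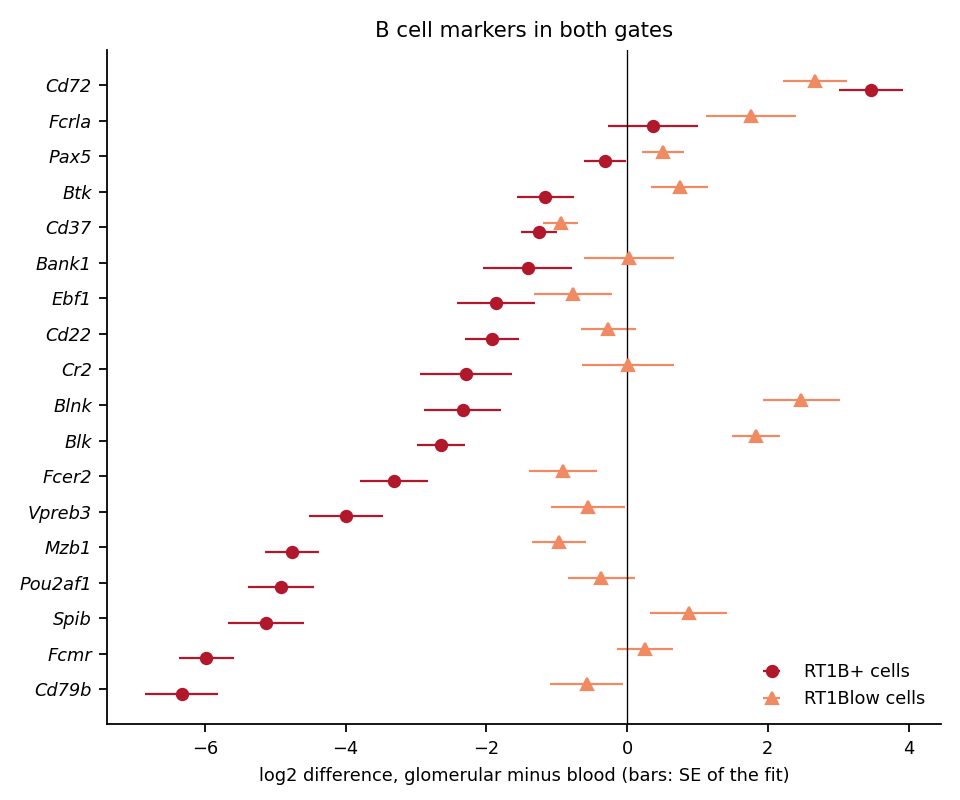
Log2 difference between glomerular and blood cells (x axis, bars are the standard error of the fit) of 18 tested B cell markers, in RT1B+ cells (circles) and RT1Blow cells (triangles), 2 arrays a group. Circles run down to -6.33 for Cd79b, whose triangle is at -0.57, and Cd72 lies to the right of 0 in both.

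Markers of other glomerular cells moved with the comparison, and their part in the results was not tested. Of 26 tested macrophage and monocyte genes 8 were higher and 1 lower, with a median of 1.21, which was 0.249 without the first blood array, 1.96 without the second and 0.751 without the second glomerular array. Cd14 rose by 4.38 ± 0.95, from -6.37 and -2.51 to -0.59 and 0.48, and Arg1 and Nos2, which compete for arginine, were at least 3.62-fold and 3.16-fold higher. Cd68 and Csf1r did not pass, at 1.99 ± 0.72 and 0.14 ± 0.47. Cd163 was not well above background on any of the 4 arrays or on either macrophage-labelled array, so its reading is uninformative here. The mean level of the 29 genes with a probe was -2.50 and -1.71 in glomerular and -4.08 and -2.93 in blood RT1B+ cells, against 0.45 and 0.15 on the macrophage-labelled arrays. Without the second glomerular array 4 of these genes were called higher. Of 22 tested podocyte, endothelial and mesangial genes 8 were higher, among them Podxl at least 9.42-fold, Kdr by 3.38 ± 0.87 and Plvap by 2.67 ± 0.42. Nphs1 and Wt1, which define podocytes, were not well above background on either glomerular RT1B+ array. Nphs1 was not so on the macrophage-labelled arrays either, while Wt1 was on both. The mean of the 23 glomerular genes with a probe was -4.56 and -4.72 in glomeruli, -5.54 and -5.89 in blood and -0.26 and 0.19 on the macrophage-labelled arrays, and all 8 genes called were higher on the latter than in glomerular RT1B+ cells. Without the first glomerular array 4 were called, and without the second blood array 5. Kidney tubule genes were called for 3 of 19 members, with Ass1, which makes argininosuccinate, at least 36.7-fold higher, and for 1 without the second glomerular array. On the blood side, 3 of 14 mast cell and basophil genes fell, the proteases Mcpt8, Mcpt9 and Mcpt10, which are also similar in sequence, and 1 rose. The count of falls was 0 without the second blood array and 1 without the first glomerular array. Erythroid and platelet genes had a median of -1.70, with 1 of 13 called. That median ran from -2.01 to -0.94 when 1 array was left out and was -0.799 with normexp correction. Hbb, beta globin, read 0.20 and -2.36 against 3.22 and 0.89 and did not pass.

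**Figure D5:**
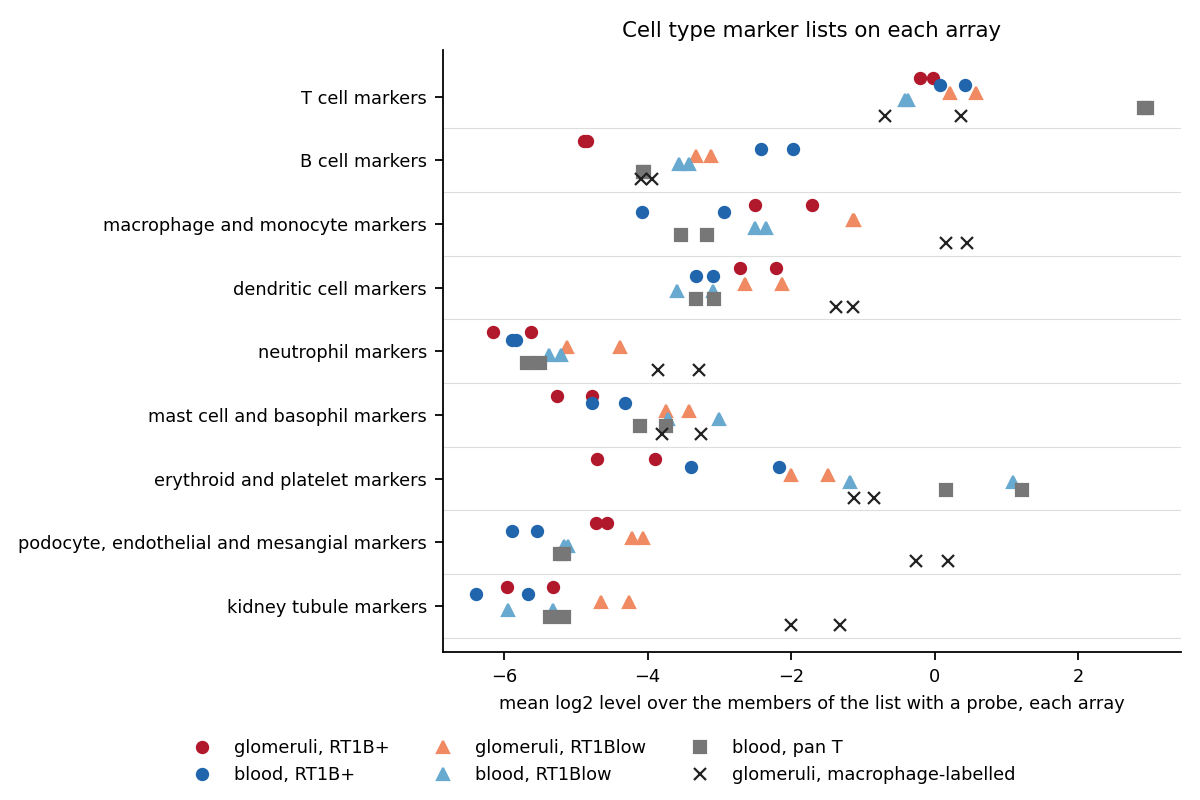
Mean log2 level (x axis) over the members of each cell type list that have a probe, on each of 2 arrays of 6 WKY groups. Macrophage-labelled arrays (crosses) lie to the right of all other groups for macrophage, glomerular and tubule genes. Glomerular RT1B+ arrays (red) lie lowest for B cell genes at -4.89 and -4.85. The means include genes not well above background, whose readings depend on the floor of each array.

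Other large falls lay outside the B cell list. Arsi, a sulfatase gene, read -5.69 and -7.45 in glomeruli against -1.03 and -1.46 in blood, and the bone morphogenetic protein family gene Gdf10 -6.17 and -7.18 against -2.31 and -2.36. C6, a component of the complement attack complex, read -6.24 and -7.87 against -3.14 and -0.34, and Prg4, lubricin, -5.29 and -7.54 against -2.98 and -0.32. For these 4 genes 1 of 2 glomerular arrays was well above background, and the blood arrays of C6 and Prg4 lay over 2 log2 units apart. Crym, a thyroid hormone binding protein, read -1.42 and -2.95 in blood and was not well above background on either glomerular array, at least 16.7-fold lower in glomeruli. Sult1a1, a sulfotransferase, fell by 3.70, and Cfd, the complement protease adipsin, by 3.69. Arsi, Gdf10, Crym and Sult1a1 stayed called in every alternative in which they were tested, and C6, Prg4 and Cfd lost their call in some.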

How the data were processed

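RNA was labelled with Cy3 and hybridised to 1-colour Agilent arrays, and the deposited spot intensity, per the file headers, came from Feature Extraction 11.0.1.1. The series text describes Illumina arrays, and the files were followed. The members and gene lists were chosen with earlier results of these data known. Processed intensity was set to log2 minus the 75th percentile of each array, and limma 3.58.1 (R 4.3.3 with data.table, version 1.17.8) was fitted to all 16 arrays in 8 groups, with no covariate. Genes were tested where all arrays of 1 group or more had the probe well above background. The probe with the highest mean stood for a gene, 37 genes with a missing value were left out, and 18355 of 30367 probes matched a symbol through the RefSeq accessions of the GRCr8 table. No spot used was saturated, and no arrays held identical values. A fold of "at least" sets the higher group's mean against the lowest signal well above background on each array of a group in which no array measured the gene. Genes were named by size within calls (the 20 largest rises and falls, up to 6 per list and direction) and by role. The log2 values of the series matrix, made by the authors, share a median of 7.91 on every array, and their further steps are not given in the sources used here. Alternatives were normexp correction with an offset of 50 on median signals, quantile and median scaling, other filters, probe rules, call rules and variance models, fewer arrays and each array left out. List counts were recomputed under these after the data were seen. Some genes are not reported here. The scripts were tested on simulated data. Figures were drawn with matplotlib 3.10.9 (Python 3.11.15).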

Additional observations from a re-analysis of the deposited data

Results flagged for a closer look

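The change from blood to glomeruli differed between RT1B+ and RT1Blow cells for the 8 genes given here, by limma's test of the difference itself with Benjamini-Hochberg adjustment. On the log2 scale the RT1B+ change minus the RT1Blow change was -6.24 for Fcmr (adjusted p = 0.00132), -6.01 for Spib, -5.76 for Cd79b, -5.29 for Srpk3, -4.56 for Pou2af1, -4.47 for Blk, -4.04 for Zp1 and -3.79 for Mzb1 (adjusted p = 0.0271). Zp1 was not well above background on any RT1B+ array of either tissue, so its difference rests on RT1Blow cells. Mzb1 was not well above background on either glomerular RT1B+ array, so its difference is not an exact value. The direction was the same in every alternative run, while the call was lost in 1 of 18 for Fcmr and in 12 of 18 for Mzb1.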

How the results depend on the processing

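The RT1B+ comparison called 2437 genes, and 1026 to 2225 when 1 of its arrays was left out, the lowest without the second glomerular array, which shared 974 genes with the full count. It called 1619 with normexp correction and 687 with the 4 arrays alone, of which 663 were shared. A set of 212 genes that could be named, called and not called, was followed through the alternatives. It leaves out some genes named here, such as Il10 and Nos2. Of the 212 RT1B+ values, 115 kept their side of the threshold in every alternative run. A reversal was counted for 0. Small differences of genes not called could still change sign, as for Egr1, which ran from -0.962 to 0.668. The RT1Blow comparison called 1707 genes, 907 with no filter on dim probes, 922 with the 8 WKY CD8+ arrays, 17 with its 4 arrays alone, and 299 to 928 when 1 array was left out. The difference between the gates called 19 genes, 11 with normexp correction, 3 with the 8 arrays, and 7 to 39 when 1 array was left out. Where leaving out an array left 1 array in a group, that array was assumed to vary like the others. The cause of these changes was not tested, apart from the fewer arrays that the smaller fits use. No paired analysis was possible because the replicate numbers only name arrays and the labels tie no blood array to a glomerular array. With 2 arrays a group precision is limited, and the RT1B+ and RT1Blow arrays of each tissue share a slide.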

Other observations

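Hypoxia response genes were higher in glomerular than in blood RT1B+ cells for 3 of 16 tested members and lower for 1, with a median of 0.335. Ndrg1, a gene that low oxygen is known to induce, read 0.32 and 0.57 in glomeruli against -1.83 and -1.54 in blood, a rise of 2.13 ± 0.20 (limma, adjusted p = 0.000135). The haem oxygenase Hmox1 rose by 1.75 ± 0.26 and the prolyl hydroxylase P4ha1 by 1.76 ± 0.55, a call P4ha1 lost in 10 of 15 alternatives, while the mitophagy receptor Bnip3l fell by 1.15. Without either glomerular array or without the first blood array 2 members were higher and 0 lower.

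Dendritic cell genes were higher for 3 of 10 members, Ccl22, Ccr7 and Cd83, and neutrophil genes for 2 of 10, S100a8 and S100a9. Cd83, a maturation marker also found on activated lymphocytes, read 5.20 and 5.33 against 3.05 and 2.27, with 4.52 and 3.62 on the macrophage-labelled arrays. S100a9, a calcium-binding protein of neutrophils and monocytes, read -2.91 and -2.40 against -6.93 and -4.49, with 1.48 and 0.01 on the macrophage-labelled arrays. The gelatinase Mmp9, of the neutrophil list, fell by 2.11. The dendritic cell count was 1 without the second array of either tissue and 2 without the first glomerular array, and the neutrophil count 0 without the second glomerular or the first blood array and 1 without either of the other two.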
